A study of Mus musculus with 16 samples.

Results

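Aminoacyl-tRNA synthetases are the enzymes that join each amino acid to its transfer RNA, so every protein made in the cell passes through them. Their genes were chosen by name from a fixed roster. The roster held 20 enzymes of the cytosol and 16 that work in mitochondria, the latter with symbols ending in 2, and all 36 were among the 23410 gene symbols counted. All 36 also passed the filter on low counts, which left 10080 genes for testing. The rule that picked them uses gene names alone, but the roster was chosen with earlier results of these data known.

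The cells were G1E-ER4, mouse erythroid precursors in which the native Gata1 gene is disrupted and which carry GATA1, the master regulator of red cell maturation, joined to the ligand-binding domain of the estrogen receptor. Adding beta-estradiol switches the fusion on, and RNA was sequenced from cultures given 0, 12.5, 25, 50, 75, 100, 150 or 200 nM, with 2 libraries at each dose and 16 in all. The same line, the same fusion and the same medium (IMDM with serum, monothioglycerate, antibiotics, stem cell factor and erythropoietin) served every group, and the length of exposure was not given in the sources used here. No group without the fusion was among the samples, so an effect of estradiol itself and an effect of GATA1 cannot be told apart, and nothing says whether the paired libraries came from separate cultures, so the p-values below measure only the spread between these libraries, which may be technical.

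A cell holds 2 sets of these enzymes, both encoded in the nucleus. The cytosolic set charges the transfer RNAs used by the main ribosomes, and a group of its members is held in a large multisynthetase complex. The mitochondrial set is imported and serves the few proteins encoded by mitochondrial DNA. Gars and Kars make both the cytosolic and the mitochondrial form from the same gene, Eprs carries the glutamate and the proline enzyme in 1 chain, and Farsa and Farsb are the subunits of the cytosolic phenylalanine enzyme. Many genes of the cytosolic set are targets of ATF4, the transcription factor of the amino acid response. ATF4 binds the C/EBP-ATF response element, here searched as TGATGNAA on both strands.

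Promoters from RefSeq (GRCm38.p6; 250 bases before to 50 after the start) were matched for 27 of the 36 genes. The response element was present in 5 of the 27 (Aars, Gars, Iars, Tars and Yars), against 4.51% of the 27025 genes with a promoter of the same length, and all 5 were cytosolic enzymes. The E-box CACGTG was also present in 5 of the 27, against 8.09% of genes, and a GATA motif (the letters GATA after an A or a T and before an A or a G, both strands) in 7 of the 27, against 33% of genes. These matches describe letters in a window and not binding. Cars, Hars, Lars, Nars, Rars, Vars, Wars, Hars2 and Pars2 were not matched. The 3 promoters that follow each hold both the response element and the E-box, in capitals, and are shown because they belong to genes that moved in opposite directions: Aars (alanine) rose with dose, while Iars (isoleucine) and Tars (threonine) fell. They lie at chr8:111033592-111033871 (plus strand), chr13:49681880-49682159 (plus strand) and chr15:11399629-11399908 (minus strand), each from 250 bases before the start to 30 bases after it, written 5′ to 3′ along the gene, with the response element appearing as its reverse complement.

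Aars: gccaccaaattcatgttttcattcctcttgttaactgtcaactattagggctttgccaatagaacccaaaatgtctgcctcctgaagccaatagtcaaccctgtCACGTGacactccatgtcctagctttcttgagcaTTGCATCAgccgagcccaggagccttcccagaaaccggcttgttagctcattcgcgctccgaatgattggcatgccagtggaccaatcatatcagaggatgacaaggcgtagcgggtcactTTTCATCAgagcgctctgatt
Iars: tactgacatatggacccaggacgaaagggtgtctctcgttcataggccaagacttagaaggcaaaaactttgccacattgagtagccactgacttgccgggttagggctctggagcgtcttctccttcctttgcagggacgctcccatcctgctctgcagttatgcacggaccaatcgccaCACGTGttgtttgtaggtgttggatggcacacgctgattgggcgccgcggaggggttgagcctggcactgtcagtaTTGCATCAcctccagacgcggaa
Tars: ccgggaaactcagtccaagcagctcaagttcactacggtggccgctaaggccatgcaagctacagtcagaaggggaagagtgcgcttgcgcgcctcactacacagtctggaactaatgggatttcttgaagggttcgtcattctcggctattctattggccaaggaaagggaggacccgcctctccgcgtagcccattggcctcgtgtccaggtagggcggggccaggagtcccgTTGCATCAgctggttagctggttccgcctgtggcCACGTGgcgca

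The libraries held 9393156 to 15802510 counted reads, of which 89029 to 193295 fell on the synthetases. Levels are given as CPM, the read count of a gene relative to the total of its library, after edgeR's TMM scaling, which sets the libraries to a common scale from genes of typical change. Values joined by a slash are those of replicates 1 and 2. A call means an adjusted p under 0.05 in edgeR's quasi-likelihood test. The summed level of 9 erythroid marker genes went from 1870/1861 CPM at 0 nM to 29108/28701 CPM at 200 nM. The same sum over 6 megakaryocyte markers was at most 18.8 CPM at 0 nM and reached 454/439 CPM at 200 nM. Most of that sum came from Itgb3, which alone reached 412 CPM, while Itga2b reached 3.47 CPM and Ppbp 0.351 CPM at most. The rise was not limited to Itgb3. Of the 5 megakaryocyte markers tested, 4 were called higher by at least 2-fold at 200 nM, with a median log2 fold change of 4.13. Markers of granulocytes and macrophages summed to 0.299 to 2.58 CPM, with Mpo and Lyz2 at 0 in every library, and Cd3e, Ms4a1, Col1a2 and Cdh5 were also at 0. Rn45s, the precursor of ribosomal RNA, took 8.94% to 15.3% of a library and rose with dose. In bulk RNA, fewer cells of a type and less RNA per cell cannot be told apart.

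Most synthetase transcripts fell over the dose range. At 200 nM, 30 of 36 were lower than at 0 nM and 4 were higher, whereas 39.5% of all tested genes were lower and 40.5% higher. The 4 that rose were Aars, Qars, Fars2 and Lars2. Sars and Yars2 were not called. The median log2 fold change was −0.68 over the 20 cytosolic enzymes and −1.09 over the 16 mitochondrial ones, against 0.02 over all tested genes. Scaling by library size alone moved the median of all genes to −0.36 and the calls over all genes to 2819 higher and 5396 lower, in place of 4086 and 3977. With that scaling 31 synthetases were lower and 1 was higher, and the medians became −1.06 and −1.47.

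**Figure D1:**
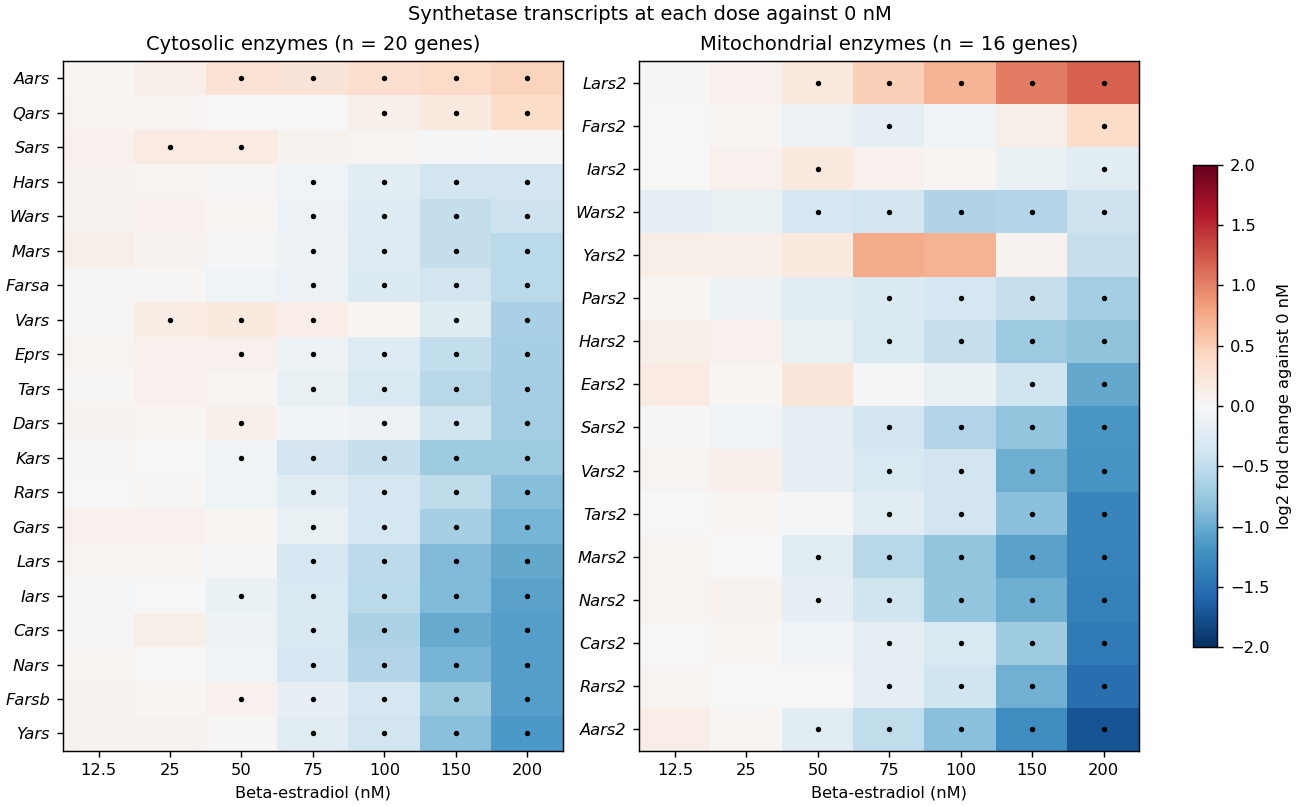
Log2 fold change of each synthetase transcript (rows) at each dose of beta-estradiol in nM (columns) against 0 nM, in 20 cytosolic enzymes on the left and 16 mitochondrial enzymes on the right; colour gives the fold change and a dot marks an adjusted p under 0.05. Blue spreads from 75 nM upward in both sets, Aars, Qars, Fars2 and Lars2 end red at 200 nM, and under scaling by library size alone Aars, Qars and Fars2 lose that call.

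With TMM scaling and over all 36 enzymes, calls of lower ones first outnumbered calls of higher ones at 75 nM. At 12.5 nM 0 of 36 enzymes were called, while 0.278% of the genes tested were called higher and 0.228% lower. At 25 nM 2 were higher and 0 lower, against 3% and 1.02% of all genes. The count at 50 nM was 8 higher and 6 lower, against 18.8% and 14.7%. By compartment, the cytosolic set had 6 higher and 2 lower at 50 nM, and the mitochondrial set 2 higher and 4 lower. At 75 nM the count was 3 higher and 27 lower against 29% and 26.9%. The counts were the same at 100 nM (34.1% and 32.5% of all genes) and reached 3 higher and 29 lower at 150 nM (37.7% and 36.6%). Over all doses at once, 35 of 36 enzymes changed (edgeR F test), against 86.3% of all genes, and Yars2, the mitochondrial tyrosine enzyme, was the exception (adjusted p = 0.0889).

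The early calls rested on small changes. Higher at 50 nM were Aars, Vars, Sars, Dars, Eprs, Farsb, Iars2 and Lars2, and lower were Iars, Kars, Aars2, Mars2, Nars2 and Wars2, and scaling by library size alone turned that balance to 3 higher and 17 lower. Without 1 of the 0 nM libraries (replicate 2) no enzyme was called higher at 25 nM, and without the other (replicate 1) the count at 50 nM was 4 higher and 2 lower. Of the 20 cytosolic enzymes, 13 were first called at 75 nM in the direction they had at 200 nM. Before that dose, 3 were first called at 50 nM (Aars, which rose, and Iars and Kars, which fell) and 1 at 25 nM. That 1 was Sars, whose change at 200 nM was not called (0.03 ± 0.04), so its direction there is not settled. Of the 16 mitochondrial ones, 7 were first called at 75 nM and 5 at 50 nM, among them Lars2, which rose. The same count over all tested genes was not made.

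Among the cytosolic enzymes, 17 of 20 fell at 200 nM, by between 1.28-fold (Hars, the histidine enzyme) and 2.22-fold (Yars, the tyrosine enzyme), and 6 fell at least 2-fold. A fall of at least 2-fold was called in 17.4% of all genes. The 6 were Yars, Farsb, Nars, Cars, Iars and Lars, which charge tyrosine, phenylalanine, asparagine, cysteine, isoleucine and leucine.

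Yars had 303/316 CPM at 0 nM, 321/331 at 12.5 nM, 327/323 at 25 nM, 318/313 at 50 nM, 276/261 at 75 nM, 235/246 at 100 nM, 181/166 at 150 nM, and 139/139 at 200 nM. The 12.5 and 25 nM libraries lay above both untreated ones, those of 50 nM overlapped them, and every dose from 75 nM lay below the dose before it. No change of Yars was called before 75 nM. The log2 fold change at 200 nM was −1.15 ± 0.04 (SE, n = 2 against 2; adjusted p = 9.72e-29).

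Nars went from 523/531 CPM at 0 nM to 423/408 at 75 nM and 244/246 at 200 nM. Iars went from 438/427 CPM to 348/352 at 75 nM and 195/214 at 200 nM. Lars went from 398/398 CPM to 318/313 at 75 nM and 204/186 at 200 nM. Each of the 3 was already lower in both 75 nM libraries than in either 0 nM library. Cars was the least abundant cytosolic enzyme, with 88.3/90.2 CPM at 0 nM and 43.9/39.5 CPM at 200 nM. Smaller falls were those of Gars at −0.93 ± 0.03, Wars (tryptophan) at −0.41 ± 0.03 and Hars at −0.36 ± 0.04 on the log2 scale. Exons of Yars, Cars and Hars overlap a gene on the opposite strand, for Hars its mitochondrial counterpart Hars2.

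The subunits of the phenylalanine enzyme did not fall together. Farsb, the beta subunit, had 474/469 CPM at 0 nM, 507/493 at 50 nM and 221/218 at 200 nM. Farsa, the alpha subunit, had 291/282 CPM at 0 nM, 273/274 at 50 nM and 193/200 at 200 nM. The fall was −1.11 ± 0.04 for Farsb and −0.55 ± 0.04 for Farsa on the log2 scale. As a ratio of CPM, Farsb to Farsa was 1.63/1.66 at 0 nM, 1.86/1.80 at 50 nM, and 1.15/1.09 at 200 nM. Exons of Farsb overlap those of Sgpp2 on the opposite strand, and an unstranded library cannot separate them.

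The 8 enzymes of the multisynthetase complex did not move as a block. Of these, 7 fell at 200 nM and Qars, the glutamine enzyme, rose, and the median of the 8 on the log2 scale was −0.71. Over all 20 cytosolic enzymes 17 fell and 2 rose, with a median of −0.68, and over all tested genes 39.5% fell and 40.5% rose. The falls ran from −0.54 ± 0.04 for Mars (methionine) through −0.67 ± 0.03 for Eprs, −0.69 ± 0.04 for Dars (aspartate), −0.73 ± 0.04 for Kars (lysine) and −0.85 ± 0.05 for Rars (arginine) to −1.08 ± 0.04 for Iars. Mars shares exon sequence with Ddit3 on the opposite strand. The scaffold proteins of the complex spread more widely than its enzymes. With TMM scaling, Eef1e1 fell from 149 ± 6.54 to 33.5 ± 0.201 CPM (SD, n = 2, log2 −2.15 ± 0.07) and Aimp2 rose by 0.28 ± 0.05. Aimp1 had a log2 fold change of −0.07 ± 0.05 (adjusted p = 0.221). The scaffold genes were not read out under library size alone, which moved the median of all genes to −0.36.

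Enzymes of the 2 structural classes, which differ in the fold of their catalytic domain, gave near-equal counts. In class I, 9 of 10 were lower and 1 was higher at 200 nM, with a median of −0.76. In class II, 8 of 10 were lower and 1 was higher, with a median of −0.68. Both stand beside 17 lower and 2 higher over all 20 cytosolic enzymes, and 39.5% lower and 40.5% higher over all tested genes. Eprs, which holds a domain of each class, was counted in class I.

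Aars, the alanine enzyme, was the cytosolic gene with the largest rise. It had 393/402 CPM at 0 nM, 403/413 at 12.5 nM, 434/417 at 25 nM, 493/476 at 50 nM, 473/474 at 75 nM, 499/510 at 100 nM, 534/500 at 150 nM, and 539/544 at 200 nM. Every library from 25 nM upward lay above both 0 nM libraries. The log2 fold change was 0.28 ± 0.03 at 50 nM (adjusted p = 1.42e-09) and 0.45 ± 0.03 at 200 nM (adjusted p = 1.52e-16), but 0.06 at 200 nM and not called under scaling by library size alone (adjusted p = 0.0747). Exosc6 shares exon sequence with Aars on the same strand.

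Qars had 230/235 CPM at 0 nM, 229/235 at 75 nM, 249/248 at 100 nM, 277/256 at 150 nM, and 303/295 at 200 nM. It overlapped its untreated libraries at 75 nM and lay above them from 100 nM. Its change at 200 nM was 0.36 ± 0.04 (adjusted p = 3.34e-11), and −0.018 under scaling by library size alone (adjusted p = 0.678).

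Vars (valine) and Sars (serine) were the enzymes called as peaking at an intermediate dose. A gene was said to peak where its level was higher than both the 0 nM and the 200 nM level, with the larger of both p-values adjusted over all genes. These 2 of 36 enzymes did so, against 2.9% of all genes, and 0 of 36 dipped, against 2.05%. Other enzymes, among them Dars, Eprs and Farsb, also had their highest mean at 50 nM, but no peak of theirs was called.

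Vars had 665/645 CPM at 0 nM, 637/701 at 12.5 nM, 740/706 at 25 nM, 734/763 at 50 nM, 717/721 at 75 nM, 677/674 at 100 nM, 550/554 at 150 nM, and 424/414 at 200 nM. Its peak was called at 25, 50 and 75 nM (at 50 nM, adjusted p = 1.98e-04, with log2 differences of 0.19 ± 0.03 from 0 nM and 0.84 ± 0.04 from 200 nM). With TMM scaling Vars thus went above its untreated level before it fell to a log2 fold change of −0.65 ± 0.04. Under scaling by library size alone its peak at 50 nM was not called (0.12 from 0 nM, adjusted p = 0.0542).

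Sars had 313/306 CPM at 0 nM, 346/348 at 25 nM, 350/345 at 50 nM, 320/328 at 75 nM, and 316/314 at 200 nM. Its 25 and 50 nM libraries stood above all others, by 0.16 ± 0.03 and 0.17 ± 0.03 on the log2 scale from 0 nM. At 200 nM its change was 0.03 ± 0.04 (adjusted p = 0.504), and −0.36 under scaling by library size alone. Under that scaling its peak at 50 nM was not called (adjusted p = 0.223). The peak of Sars (adjusted p = 0.0144 at 50 nM) was lost without 0 nM replicate 2, 50 nM replicate 1, 200 nM replicate 1 or 200 nM replicate 2.

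**Figure D2:**
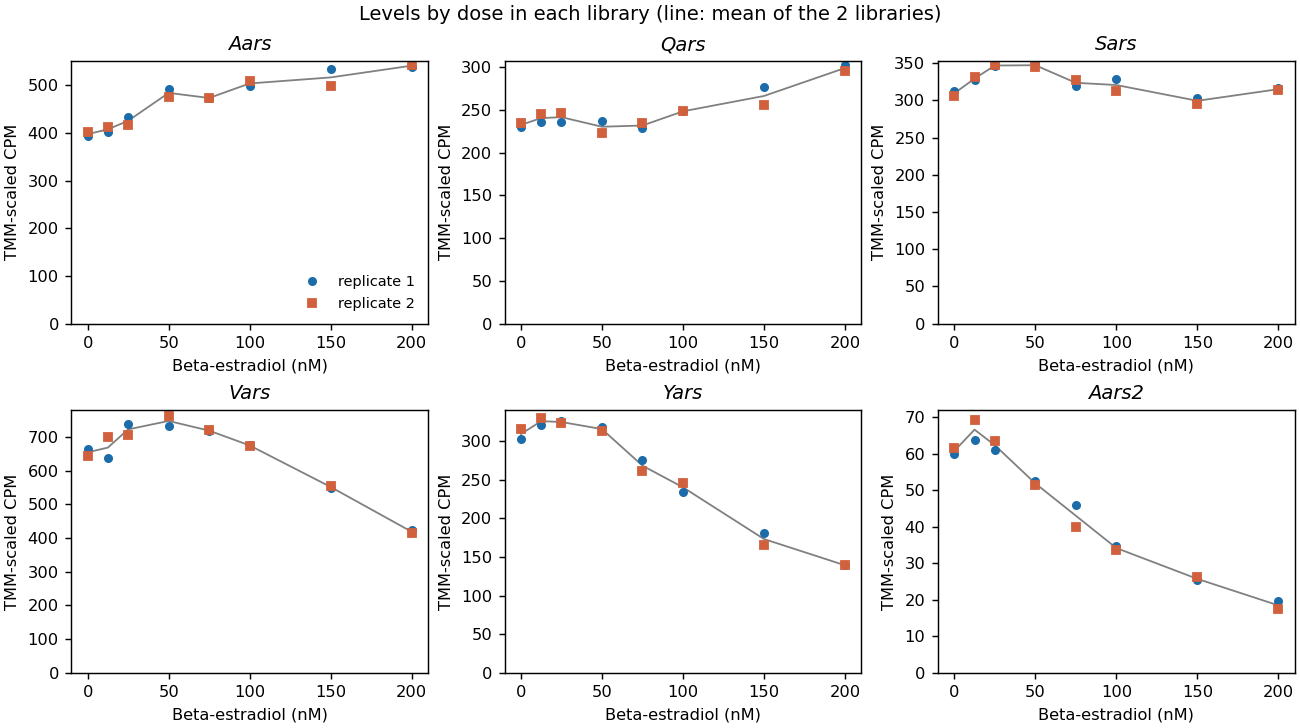
Levels of Aars, Qars, Sars, Vars, Yars and Aars2 in TMM-scaled CPM (y axes, from 0) against the dose of beta-estradiol in nM (x axes); points are the 2 libraries of each dose and the line joins their means. Aars climbs to 539/544 at 200 nM, Vars passes through 734/763 at 50 nM, and Yars and Aars2 fall from 75 nM and 50 nM. Under scaling by library size alone the rises of Aars and Qars at 200 nM are not called. The peaks of Vars and Sars at 50 nM are not called under it either.

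The dose at which a transcript had covered 50% of its log2 change to 200 nM was read by linear interpolation, from means made monotone over dose, for the 25 enzymes that changed at least 1.5-fold. Kars came first at 74.9 nM (73.9 to 77.9 nM with each library left out in turn) and Vars last at 153 nM (152 to 154 nM). The 13 cytosolic enzymes had a median of 110 nM and the 12 mitochondrial ones 99.1 nM, and their ranges overlapped. Under scaling by library size alone Kars moved to 86.2 nM and Vars to 145 nM, and Lars2 came first at 81.6 nM. With TMM scaling Mars2 (methionine) at 85.0 nM and Hars2 (histidine) at 85.3 nM had the earliest midpoints of the mitochondrial enzymes. With each library left out in turn they ranged from 78.6 to 91.3 nM and from 78.0 to 88.9 nM. Both ranges overlapped that of Lars2 (83.3 to 92.7 nM), so the order was not settled. Ears2 (glutamate) at 152 nM and Cars2 (cysteine) at 146 nM were the latest of the mitochondrial enzymes. The order does not follow the size of the fall, since Kars fell less than Yars, whose midpoint was 120 nM.

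**Figure D3:**
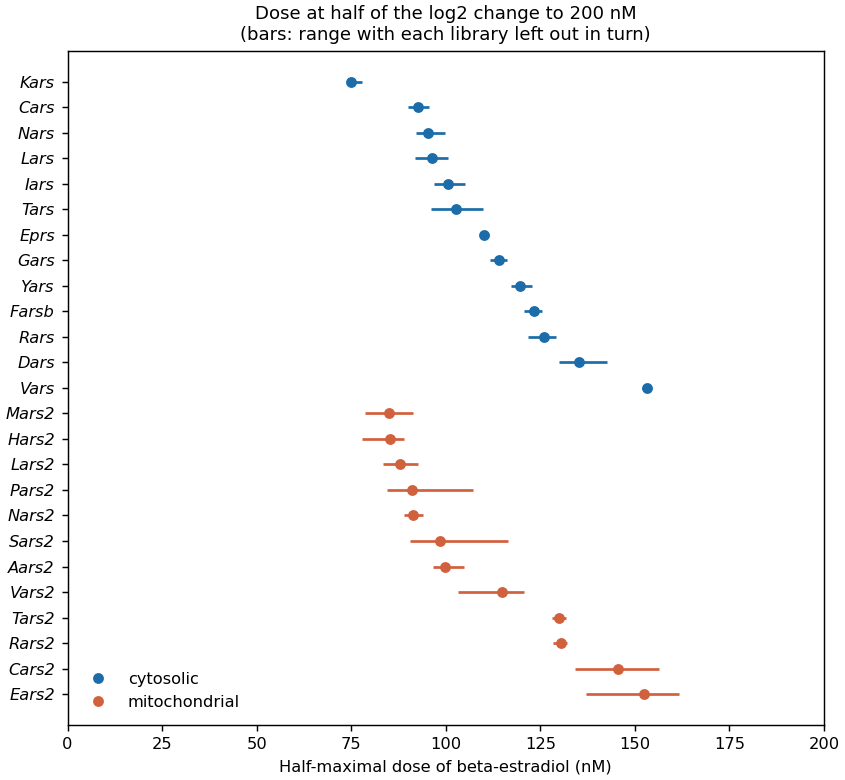
Dose of beta-estradiol in nM (x axis) at which each synthetase transcript (rows) had covered 50% of its log2 change between 0 and 200 nM, for enzymes that changed at least 1.5-fold; points are the estimate from all libraries and bars the range with each library left out in turn. Kars sits lowest at 74.9 nM, though not under scaling by library size alone, where Lars2 does at 81.6 nM, and Vars and Ears2 sit above 150 nM.

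Among the mitochondrial enzymes, 13 of 16 fell at 200 nM and 9 of them fell at least 2-fold, beside 39.5% and 17.4% of all tested genes. Aars2, which charges alanine in mitochondria, had 60.0/61.5 CPM at 0 nM, 63.9/69.3 at 12.5 nM, 61.1/63.6 at 25 nM, 52.4/51.3 at 50 nM, 46.1/40.0 at 75 nM, 34.7/33.7 at 100 nM, 25.3/26.1 at 150 nM, and 19.5/17.4 at 200 nM. Both libraries at each dose from 50 nM lay below both untreated ones. Its log2 fold change of −1.72 ± 0.09 (adjusted p = 2.60e-23), or 3.30-fold, was the largest among the 36 enzymes.

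Rars2 (arginine) went from 123/115 CPM at 0 nM to 106/102 at 75 nM and 42.9/41.4 at 200 nM. Cars2 went from 69.0/67.0 CPM to 56.2/64.3 at 75 nM and 25.6/25.3 at 200 nM. Nars2 (asparagine) went from 52.1/52.0 CPM to 37.0/41.7 at 75 nM and 19.9/21.0 at 200 nM. These 3 fell by −1.50 ± 0.06, −1.42 ± 0.08 and −1.34 ± 0.09 on the log2 scale. Close to them were Mars2 at −1.33 ± 0.08, Tars2 (threonine) at −1.33 ± 0.05, Vars2 (valine) at −1.17 ± 0.11 and Sars2 (serine) at −1.16 ± 0.08. Ears2 fell by −1.02 ± 0.12, Hars2 by −0.81 ± 0.08 and Pars2 (proline) by −0.68 ± 0.11. The smallest falls were those of Iars2 (isoleucine, −0.23 ± 0.07) and Wars2 (tryptophan, −0.42 ± 0.14), the latter at 13.2/15.8 CPM when untreated. Exons of Cars2, Ears2, Hars2, Iars2, Nars2 and Vars2 overlap a gene on the opposite strand.

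Fars2, the mitochondrial phenylalanine enzyme, was called lower at 75 nM and higher at 200 nM. Its dip at 75 nM, judged by the larger of both p-values, was not called (adjusted p = 0.174). Fars2 had 61.6/66.5 CPM at 0 nM, 57.7/55.6 at 75 nM, 68.5/70.1 at 150 nM and 82.6/82.3 at 200 nM. It was lower at 75 nM (−0.18 ± 0.06, adjusted p = 0.0165) and higher at 200 nM (0.36 ± 0.06, adjusted p = 1.09e-06), the latter −0.017 and not called under scaling by library size alone (adjusted p = 0.799). Lyrm4 and Nrn1 overlap it on the opposite strand.

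Yars2 differed between libraries of the same dose. It had 11.7/12.1 CPM at 0 nM, 10.5/16.8 at 50 nM, 23.8/15.9 at 75 nM, 18.6/20.0 at 100 nM, 14.5/9.72 at 150 nM, and 5.71/11.4 at 200 nM. Its log2 fold change at 200 nM was −0.47 ± 0.36 (adjusted p = 0.263), with an SE above those of all other enzymes.

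For 15 amino acids a cytosolic and a mitochondrial enzyme could be set side by side. The cytosolic to mitochondrial ratio was higher in both 200 nM libraries than in both 0 nM libraries for 10 of them. It was lower for 4 and overlapped for tryptophan. Separation of 2 libraries from 2 is not a test, and how often the ratios of other gene pairs separate was not counted. The median difference (cytosolic minus mitochondrial log2 fold change at 200 nM) was 0.35. Alanine had the widest gap in the first direction, 2.17 ± 0.09 (combined SE), since Aars rose while Aars2 fell. Serine followed at 1.19 ± 0.09 and methionine at 0.80 ± 0.09. In the other direction were leucine (−2.21 ± 0.07), phenylalanine (−0.91 ± 0.07, with Farsa as the cytosolic partner), isoleucine (−0.84 ± 0.09) and tyrosine (−0.69 ± 0.36). Yars2, of the tyrosine pair, was not called at 200 nM. The reads counted on Lars2, of the leucine pair, are of uncertain origin, as described below. Tryptophan stood at 0.01 ± 0.15, an interval that leaves room for a difference either way.

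**Figure D4:**
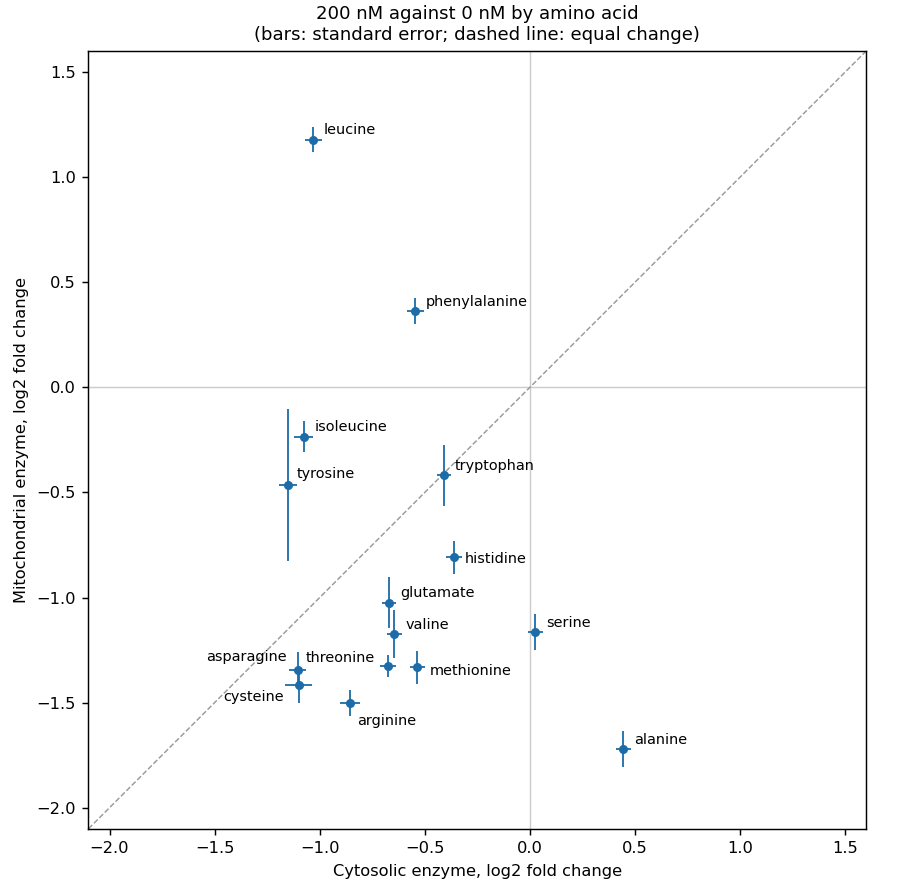
Log2 fold change at 200 nM against 0 nM of the cytosolic enzyme (x axis) and of the mitochondrial enzyme (y axis) for 15 amino acids; bars are standard errors and the dashed line marks equal change. Alanine lies far below the line at 0.45 and −1.72, and leucine far above it at −1.03 and 1.18. Most other amino acids lie below the line. Under scaling by library size alone both values of a pair shift down together and the distance from the line stays. The reads counted on Lars2, of the leucine pair, are of uncertain origin.

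Levels compared between genes were divided by transcript length (CPM per kilobase). At 0 nM the cytosolic enzymes ran from 27.7 for Cars to 280.0 for Gars (glycine), with a median of 128. The mitochondrial ones ran from 3.28 for Wars2 to 63.8 for Rars2, with Lars2 apart at 516 and a median of 17.2. The cytosolic transcript was the more abundant in 13 of 15 pairs, by a median log2 ratio of 2.38, up to 6.03 for tryptophan. For alanine the log2 ratio per kilobase was 1.93 and 1.93 in the libraries at 0 nM and 4.01/4.19 at 200 nM. For serine it went from 1.34 and 1.36 to 2.52 and 2.56.

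Lars2, the mitochondrial leucine enzyme, stood apart from the other 35 in its level and in the size of its rise. It had 2040/1981 CPM at 0 nM, 2084/2014 at 12.5 nM, 2147/2108 at 25 nM, 2203/2420 at 50 nM, 2762/2857 at 75 nM, 3147/3321 at 100 nM, 3960/4187 at 150 nM, and 4309/4791 at 200 nM. From 25 nM every library exceeded both untreated ones. The log2 fold change was 1.18 ± 0.06 at 200 nM (adjusted p = 3.81e-08), or 2.26-fold, and no other enzyme rose by 1.5-fold or more, a rise called in 29% of the genes tested.

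The reads counted on Lars2 are of uncertain origin. Rn45s rose 2.04-fold over the same doses (log2 1.03 ± 0.04, adjusted p = 2.20e-09), and Lars2 counts were between 2.04% and 2.71% of Rn45s counts in all 16 libraries, with a mean of 2.31% ± 0.03 (SD, n = 2) at 0 nM and 2.57% ± 0.10 at 200 nM. In the 3′ untranslated part of the Lars2 transcript, bases 3278 to 3349 match Gm15564 at 98.6% over 72 bases and bases 3233 to 3329 match AA474408 at 94.8% over 97 bases. Neither of these genes has a row in the counts. The part of Rn45s and of the shared sequence in the rise of Lars2 was not tested.

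Whether the mitochondrial set rose or fell in sum depended on this 1 gene. The summed level of the 20 cytosolic enzymes was 7944 ± 2.37 CPM at 0 nM (SD, n = 2), 8173 ± 51.7 at 50 nM, 6724 ± 59.2 at 100 nM and 5235 ± 19.4 at 200 nM. The mitochondrial sum went from 2967 ± 67.4 to 5072 ± 338 CPM with Lars2, and from 957 ± 26.3 to 522 ± 2.55 CPM without it. Lars2 made up 67.8% of the mitochondrial sum at 0 nM and 89.7% at 200 nM. The ratio of cytosolic to mitochondrial sum thus went from 2.68 ± 0.06 to 1.03 ± 0.07 with Lars2, and from 8.31 ± 0.23 to 10.04 ± 0.01 without it.

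**Figure D5:**
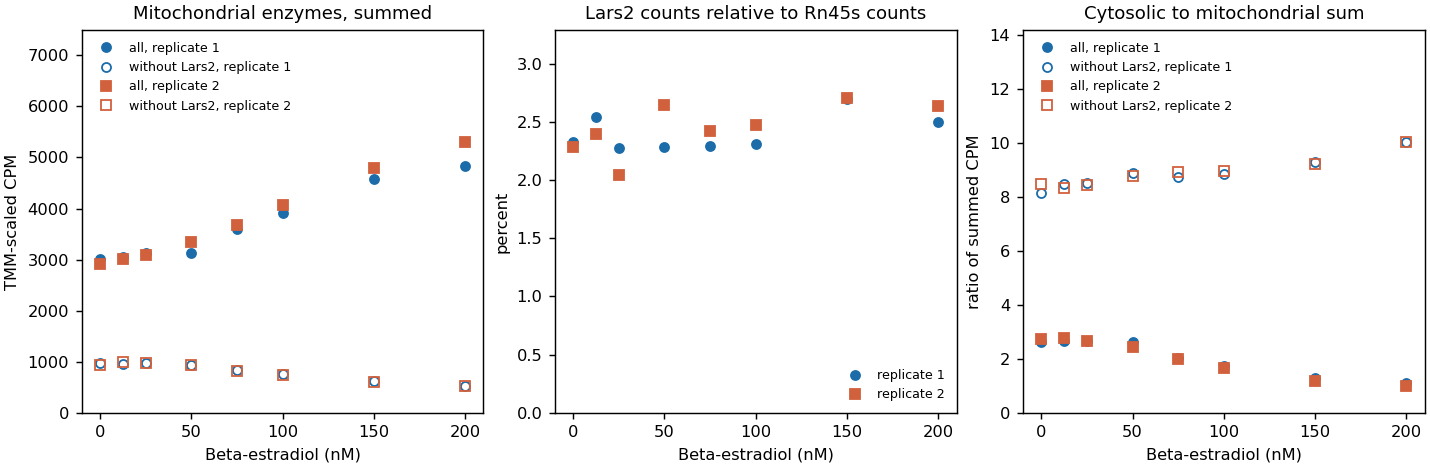
Left, summed level of the mitochondrial synthetases in TMM-scaled CPM; centre, Lars2 counts as a percent of Rn45s counts; right, ratio of the cytosolic to the mitochondrial sum; all against the dose of beta-estradiol in nM, with circles and squares for replicates 1 and 2 and open symbols for sums without Lars2. The filled mitochondrial sum rises to a mean of 5072 while the open one falls to 522, and the centre panel stays between 2.04% and 2.71%.

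At 200 nM the counts of the gene lists that follow stand beside 39.5% lower and 40.5% higher over all tested genes. Values of these lists are under TMM scaling, and they were not read out under library size alone. Of 18 tested genes for transfer RNA maturation and export, 16 fell at 200 nM and 1 rose, the median being −1.10 on the log2 scale. Pus7, a pseudouridine synthase, fell from 125 ± 1.70 to 21.5 ± 3.08 CPM (log2 −2.54 ± 0.07), and Trmt61a, the catalytic subunit of a transfer RNA methyltransferase, from 76.9 ± 2.13 to 16.4 ± 0.0333 CPM. Xpot, the transfer RNA exporter, fell by −1.14 ± 0.04 and Ssb (La), which binds new polymerase III transcripts, by −1.11 ± 0.04. Among 19 genes of RNA polymerase III transcription, which makes transfer RNA, 12 fell and 6 rose. Maf1, the repressor of that polymerase, rose from 140 ± 1.97 to 464 ± 4.85 CPM (log2 1.73 ± 0.04), and the subunit Polr3e fell by −2.20 ± 0.07. Of 5 genes that clear mischarged transfer RNA or resemble such enzymes, 3 fell and 1 rose. Dtd1, a D-aminoacyl-tRNA deacylase, fell by −2.15 ± 0.08 and its relative Dtd2 rose by 0.61 ± 0.06.

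Downstream of charging, 5 of 7 cytosolic elongation and release factors fell and 2 rose at 200 nM, again beside 39.5% lower and 40.5% higher over all genes. Eef2, which moves the ribosome along the message, rose from 5096 ± 7.48 to 8154 ± 131 CPM (log2 0.68 ± 0.02), and Eef1g fell by −1.10 ± 0.03. Of 13 mitochondrial translation factors, 9 fell and 2 rose, among them Tsfm at −2.33 ± 0.08, Gfm1 at −1.48 ± 0.05 and Tufm at −1.45 ± 0.05, the elongation factors of that compartment. For the selenocysteine transfer RNA, 4 of 6 genes fell and 1 rose.

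Of 14 tested amino acid response genes, 8 were higher and 2 lower at 50 nM (median log2 fold change 0.27), beside 18.8% and 14.7% of all genes. At 200 nM 7 were higher and 6 lower (median 0.09), shares near the 40.5% and 39.5% of all genes. Atf4 itself had a log2 fold change of 0.14 ± 0.05 at 50 nM (adjusted p = 0.0233) and −0.24 ± 0.05 at 200 nM. Sesn2 and Ddit3, stress-induced targets, rose by 2.07 ± 0.06 and 2.06 ± 0.08 at 200 nM. Psat1, which makes serine, fell by −1.80 ± 0.03, and Asns, which makes asparagine, rose by 0.19 ± 0.03 at 50 nM and fell by −0.45 ± 0.03 at 200 nM. Of the 5 synthetases with the response element in the promoter, Aars rose and Gars (−0.93 ± 0.03), Iars, Tars (−0.68 ± 0.04) and Yars fell at 200 nM.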

How the data were processed

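Raw read counts per gene symbol were deposited by the authors in 1 table for all 16 libraries, made by Smart-seq2, a full-length method whose libraries do not keep strand. Reads were demultiplexed with bcl2fastq and aligned with STAR to the mm10 genome, per the submitters' processing notes, with versions and counting tool not given in the sources used here. These counts were tested with edgeR 4.0.16 in R 4.3.3 (TMM scaling, filterByExpr by dose, robust quasi-likelihood fit of all 8 doses, Benjamini-Hochberg adjustment over 10080 genes within each contrast). Standard errors of log2 fold changes come from that fit. Gene positions and transcript lengths (longest principal transcript) come from GENCODE M21, promoters from RefSeq, and shared sequence from blastn 2.17.0. The fit was tested on simulated counts, with 50 genes changed at 200 nM for each size of change. It called 46% of those changed 1.25-fold, 76% at 1.5-fold, 84% at 2-fold and 94% at 4-fold, so small changes can be missed. The members, the other gene lists and the rules for naming genes were chosen with earlier results of these data known. Values per library are given for the 6 cytosolic and 4 mitochondrial enzymes with the largest change, those called against the direction of their set and those that peaked, with others added for comparison. Alternatives were DESeq2 1.42.0, other scalings and filters, and leaving out each library. Replicate libraries differed by more than counting noise at every dose (chi-square per degree of freedom 1.70 to 4.14).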

Additional observations from a re-analysis of the deposited data

How the results depend on the processing

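The counts of lower enzymes at 75 to 200 nM kept within 1.5 times of the reported ones under every scaling, filter, tool and left-out library tried. The counts of higher enzymes at 25, 50 and 200 nM and of lower ones at 50 nM did not. Lars2 stayed higher at 200 nM with library size alone (log2 0.80) and with library size without Rn45s (0.89). Qars and Fars2 lost their call under both, and Aars only under the first. With library size alone as the scaling, 1 enzyme was higher at 25 nM, 3 were higher and 17 lower at 50 nM, and 1 was higher at 200 nM (0 cytosolic, 1 mitochondrial); 1 peaked and 1 dipped; the sums at 0 and 200 nM were 8735 and 4421 CPM (cytosolic) and 3263 and 4283 CPM (mitochondrial). Under that scaling Qars was at −0.018, Fars2 at −0.017 and Sars at −0.36 on the log2 scale at 200 nM. With library size without Rn45s, chosen after seeing the data, 3 were higher and 16 lower at 50 nM, 2 were higher at 200 nM (1 cytosolic, 1 mitochondrial), 1 peaked and 1 dipped, and Sars was at −0.27. DESeq2 called 3 lower at 50 nM, and a fit of only the 2 doses compared called 5 higher at 75 nM. Asking for a change of at least 1.5-fold left 0 higher at 25 nM (0.446% of all genes), 0 in either direction at 50 nM (5.32% higher, 3.33% lower) or 75 nM (13.5%, 8.04%), 1 higher with 7 lower at 100 nM (18.1%, 14%), 1 higher with 17 lower at 150 nM (24.7%, 21.7%), 1 higher at 200 nM (0 cytosolic, 1 mitochondrial; 29%) and 0 that peaked. Without Lars2, also chosen after seeing the data, the mitochondrial sums at 0 and 200 nM were 957 and 522 CPM. Leaving out each library in turn gave 0 to 2 higher at 25 nM, 4 to 8 higher and 2 to 7 lower at 50 nM, and 1 to 3 that peaked. The lowest of these came without 0 nM replicate 2 at 25 nM and without 0 nM replicate 1 at 50 nM; 1 peaked without 0 nM replicate 2, 200 nM replicate 1 or 200 nM replicate 2. Beyond what the scalings themselves change, the cause was not tested. With a replicate block 30 enzymes were lower and 4 higher at 200 nM, and no reported count moved by over 1.5 times. All 28 correlations of replicate 1 deviations between doses lay from −0.058 to 0.096, so no deviation shared by replicate number was seen. Such correlations cannot tell whether libraries of the same number shared a culture or batch. The least abundant enzymes were Yars2 and Wars2; the effect of depth on their spread was not tested.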
